A study of Homo sapiens with 21 samples.

Results

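The trefoil factor genes TFF1, TFF2 and TFF3 lie side by side on the minus strand of chromosome 21 and together span 54.9 kb. Binding of estrogen receptor beta (ER-beta) around them is described here from lists of regions enriched in chromatin immunoprecipitation sequencing (ChIP-seq). Regions were taken by position alone: the summit, which is the highest point of a region, had to lie within 100 kb of the body of a trefoil gene in the GENCODE annotation (chr21:42211667-42466535, hg38). This gave 16 of the 39811 records in the 3 lists. They were 10 of 26861 estradiol regions, 6 of 10045 LY500307 regions and 0 of 2905 ethanol regions, and they fell on 10 sites.

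The cells were MDA-MB-231-ER-beta cells, a triple-negative breast cancer line in which doxycycline switches on ER-beta, which was precipitated through an antibody against its Flag tag. All groups received doxycycline (100 ng/ml, 24 h per the sample titles), in medium with charcoal-stripped serum. The groups then had 3 h of 1 nM estradiol, 3 h of LY500307 (an agonist selective for ER-beta, at 1 nM in the titles and at 10 nM in the sample characteristics) or 3 h of ethanol, the vehicle. There were 4 ChIP and 3 input libraries per treatment, 21 in all. None of these libraries was made without doxycycline, and the labels do not say whether the line is 1 clone. Each treatment came as 1 pooled list without replicates, so treatments were compared without a test.

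Trefoil peptides are small, cysteine-rich proteins that mucous cells secrete together with mucins and that help the lining of the gut to repair itself. TFF1, first known as pS2, is made mainly by surface cells of the stomach, TFF2 (spasmolytic polypeptide) by its mucous neck cells and TFF3 (intestinal trefoil factor) by goblet cells. TFF1 is also a classical estrogen-induced gene of luminal breast cancer cells, where estrogen receptor alpha acts through an imperfect estrogen response element (ERE) in its promoter. An ERE is a palindrome of paired half-sites to which a receptor dimer binds. RNA was not measured in these libraries, so the values below speak of binding and not of expression.

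The following values describe each region. The fold enrichment is the authors' ratio of ChIP signal to local background at the summit, in the pool. The number of fragments over the summit was recovered from the fold and the p-value of each region, and its 95% Poisson interval covers counting error only. All 16 regions gave a whole number of fragments, with a mismatch of at most 0.0002 in -log10 p. Among regions of chromosome 21 with a fold of 5 or more, the lowest recurring background was 1.00 fragments in the estradiol pool and 1.389 in the LY500307 pool. Because each pool has its own scale, the folds of a site with estradiol and with LY500307 stand side by side and are not by themselves a measured change.

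The DNA under the sites is shown for the TFF1 promoter, which carries the classical element, and for the 4 distal sites shared by both ligands, whose elements and ratios are compared later. All sequences are hg38, 5′ to 3′ on the minus strand, the strand on which the trefoil genes are read, and each is centred on the estradiol summit. Capitals mark the closest match to the ERE, GGTCANNNTGACC, with at most 2 mismatches in its 10 fixed bases.
TFF1 promoter (chr21:42366826-42367026): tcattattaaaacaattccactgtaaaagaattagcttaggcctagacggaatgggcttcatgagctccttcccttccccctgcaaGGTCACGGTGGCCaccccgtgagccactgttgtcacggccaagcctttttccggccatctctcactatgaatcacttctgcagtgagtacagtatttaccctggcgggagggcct
4.30 kb upstream of TFF3 (chr21:42319658-42319758): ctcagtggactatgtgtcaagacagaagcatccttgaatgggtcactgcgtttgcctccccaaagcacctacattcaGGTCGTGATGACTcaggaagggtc
9.97 kb upstream of TFF1 (chr21:42376457-42376557): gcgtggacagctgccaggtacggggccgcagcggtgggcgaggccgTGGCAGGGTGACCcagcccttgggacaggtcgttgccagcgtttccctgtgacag
24.4 kb upstream of TFF1 (chr21:42390881-42390981): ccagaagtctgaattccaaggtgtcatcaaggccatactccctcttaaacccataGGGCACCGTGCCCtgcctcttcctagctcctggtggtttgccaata
49.2 kb upstream of TFF1 (chr21:42415703-42415803): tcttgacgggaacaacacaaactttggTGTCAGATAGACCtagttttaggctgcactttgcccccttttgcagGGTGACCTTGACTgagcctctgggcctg

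The summits of the 10 estradiol sites all lay upstream of a trefoil gene and none lay inside a trefoil gene body. The estradiol region at the TFF2 promoter (chr21:42350972-42351390) itself reached into the TFF2 body, which ends at chr21:42350997. The 10 sites reached from the site 4.30 kb upstream of TFF3 to the site 67.5 kb upstream of TFF1, a stretch of 114 kb. Neighbouring summits were 0.744 to 27.1 kb apart. TFF1 and TFF2 each had a site in the promoter, which was taken to run from 1000 bp before to 100 bp after the start site of a protein-coding gene. TFF3 had none there, and its nearest site was the one 4.30 kb upstream. The side of the window that holds the lipid exporter gene ABCG1 had no region in any list. The other sites lay between the genes or in introns of the neighbours TMPRSS3, a transmembrane serine protease gene, and UBASH3A, a gene for a regulator of T-cell receptor signalling. The files carry no enhancer mark, so these sites are called distal by position alone.

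**Figure D1:**
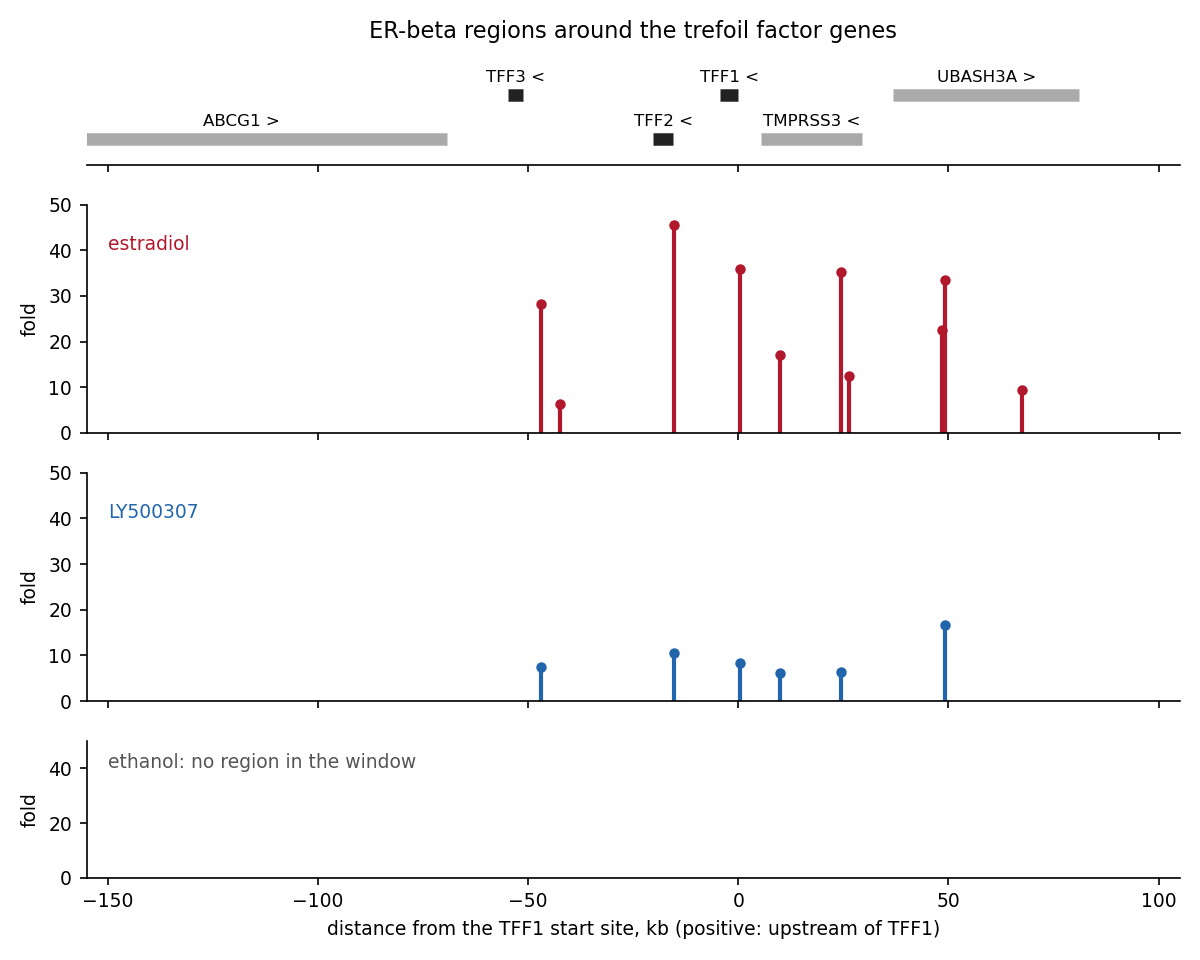
Fold enrichment (vertical axes) of every region within 100 kb of the trefoil genes, by the distance of its summit from the TFF1 start site in kb, with genes drawn above (arrowheads give the strand; ABCG1 runs on to the left). Estradiol had 10 regions with folds of 6.25 to 45.6, LY500307 had 6 with folds of 6.07 to 16.7, and ethanol had 0.

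The strongest site of the cluster with estradiol was the promoter of TFF2 and not that of TFF1. The TFF2 promoter region (chr21:42350972-42351390) had its summit 173 bp upstream of the TFF2 start site. Its fold was 45.6 with estradiol and 10.4 with LY500307, and ethanol had no region. The summit held 101 fragments with estradiol (82.3 to 122.7) and 35 with LY500307 (24.4 to 48.7). The estradiol and LY500307 summits lay 1 bp apart. By fold the site ranked 2532 of 26861 with estradiol, above 90.5% of that list, and 3976 of 10045 with LY500307, above 60.1%.

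The TFF1 promoter was next by fold with estradiol, although the sites 49.2 kb and 24.4 kb upstream of TFF1 held 74 and 71 summit fragments. This region (chr21:42366674-42367120) had its summit 391 bp upstream of the TFF1 start site. The fold was 36.0 with estradiol and 8.35 with LY500307, from 71 fragments (55.5 to 89.6) with estradiol and 21 (13.0 to 32.1) with LY500307, and ethanol had no region. It ranked 3453 with estradiol, above 87.1% of the list, and 5150 with LY500307, above 48.1%. The fragment intervals of the TFF1 and TFF2 promoters overlapped with estradiol, and they overlapped with LY500307 as well.

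TFF3 had 2 distal sites and no promoter site. The nearer, 4.30 kb upstream (chr21:42319524-42319903, intergenic), was enriched 28.1-fold with estradiol, against 7.53-fold with LY500307, from 62 fragments with estradiol and 25 with LY500307. The farther, 8.63 kb upstream (chr21:42323906-42324128, intergenic), was the weakest of all 10 sites, with a fold of 6.25 and 13 fragments (6.92 to 22.2) in the estradiol list alone. That list had a lower fold at 82.9% of its regions than at the nearer TFF3 site, and at 20.9% than at the farther. The 27.1 kb between the farther site and the TFF2 promoter was the widest gap in the cluster.

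TMPRSS3, which starts between TFF1 and UBASH3A and is read in the same direction as the trefoil genes, held 3 sites. The site 9.97 kb upstream of TFF1 (chr21:42376356-42376673) lay at the border of coding exon 11 and intron 11 of TMPRSS3. Its estradiol summit fell in the intron and its LY500307 summit, 38 bp away, in the exon. The fold was 17.0 with estradiol and 6.07 with LY500307, from 33 fragments with estradiol and 15 with LY500307. In intron 2, the site 24.4 kb upstream of TFF1 (chr21:42390733-42391105) was enriched 35.3-fold with estradiol, against 6.28-fold with LY500307, from 71 fragments with estradiol and 14 with LY500307. Its neighbour 26.4 kb upstream (chr21:42392755-42393012), in the same intron, had a fold of 12.5 and 27 fragments with estradiol and no LY500307 region. With estradiol the 24.4 kb site held as many summit fragments as the TFF1 promoter.

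UBASH3A, read in the opposite direction, held the last 3 sites and, by fold, the strongest LY500307 region of the cluster. That region lay in intron 5, 49.2 kb upstream of TFF1 (chr21:42415480-42415957), and was enriched 33.5-fold with estradiol, against 16.7-fold with LY500307, from 74 fragments with estradiol and 39 with LY500307. Its rank was 3743 with estradiol and 2213 with LY500307. Its LY500307 fragment interval (27.7 to 53.3) overlapped that of the TFF2 promoter (24.4 to 48.7). The local background with LY500307 was 1.389 fragments at this site and 2.45 at the TFF2 promoter. In the same intron and 744 bp away, the site 48.5 kb upstream (chr21:42414822-42415229) had a fold of 22.5 and 44 fragments with estradiol and no LY500307 region. The site 67.5 kb upstream, in intron 9 (chr21:42433893-42434238), had a fold of 9.49 and 32 fragments with estradiol alone. Its local background, 2.48 fragments, was the highest of the 10 sites with estradiol.

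**Figure D2:**
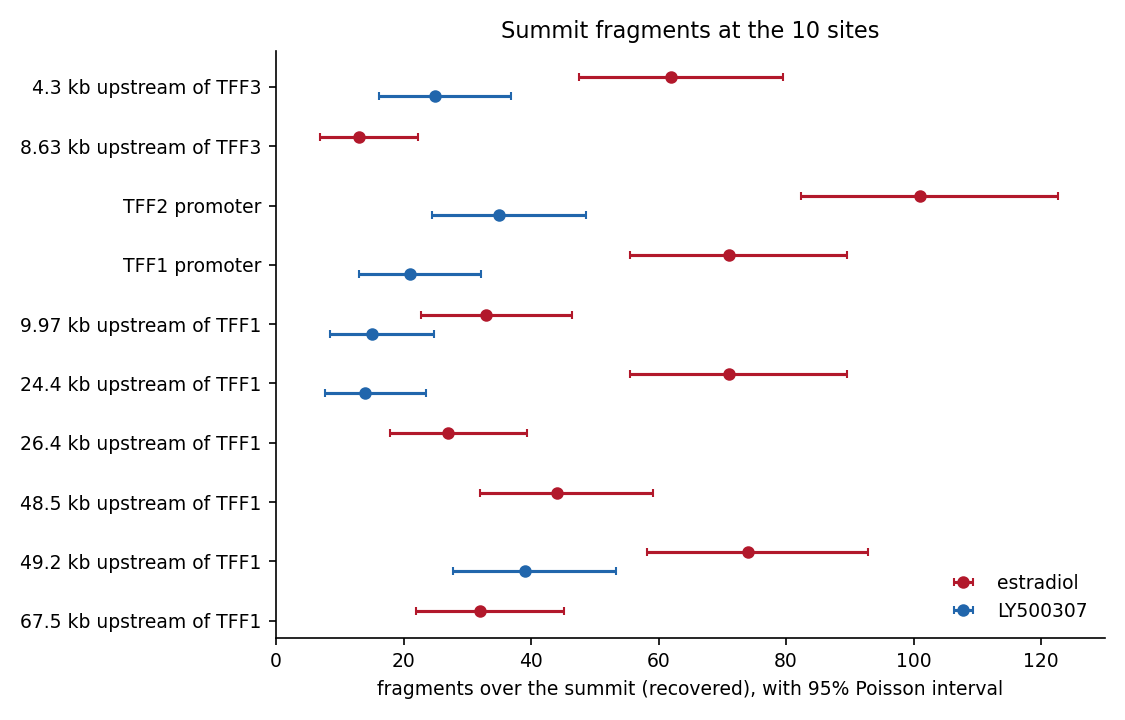
Fragments over the summit (horizontal axis) at each of the 10 sites, as recovered from the deposited fold and p-value of the estradiol and LY500307 pools; bars are 95% Poisson intervals and cover counting error only, and a missing LY500307 point means that the site was not in that list. The TFF2 promoter had 101 fragments with estradiol and 35 with LY500307.

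The median fold was 25.3 over the 10 estradiol regions, against 9.50 over the whole estradiol list. It was 7.94 over the 6 LY500307 regions, against 8.46 over the whole LY500307 list. The members share 1 locus and are not replicates, so these medians are descriptions. The lists also differ in length, so positions in them are not compared between ligands. Estradiol regions that overlapped an LY500307 region had a median fold of 34.4 at the 6 shared sites, against 27.7 over all 9082 such regions. The weakest estradiol member had a fold of 6.25 and the weakest LY500307 member 6.07, both above the folds at which listing ended. Among regions within 1 of the lowest -log10 p of their list, folds reached at most 4.26 with estradiol, 4.18 with LY500307 and 4.59 with ethanol. What fold the 10 sites had in the ethanol pool is not given by a list of regions.

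**Figure D3:**
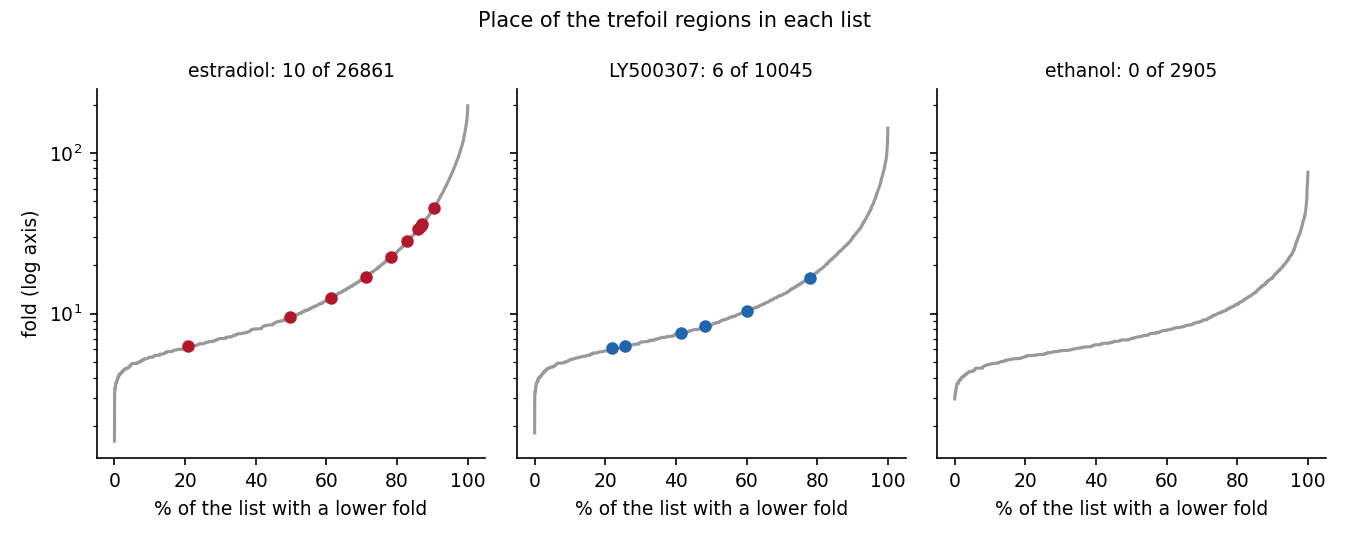
Fold of every region of each list (log axis) against the percent of that list with a lower fold (grey line), with the trefoil regions as points. Estradiol members sit between 20.9% and 90.5% of their list and LY500307 members between 22.0% and 77.9%; the ethanol list has no member.

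All 6 LY500307 regions overlapped an estradiol region, and the other 4 estradiol sites were in no other list. Over the whole lists, 91.9% of LY500307 regions overlapped an estradiol region and 33.8% of estradiol regions overlapped an LY500307 region. The 4 estradiol-only sites had folds of 6.25, 9.49, 12.5 and 22.5, and the 6 shared sites had folds of 17.0 to 45.6. The 48.5 kb site thus had a higher estradiol fold than the shared 9.97 kb site. Of the 7 sites inside that range of folds 6 were shared, and 76.3% of all 5200 estradiol regions in the range were. The range was chosen after the values were seen, from the lowest to the highest fold of the 6 shared sites. It holds all 6 by construction, so the 6 of 7 cannot be weighed against that share.

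No site of the cluster was found with ethanol. Over the whole lists, 9.26% of estradiol and 22.9% of LY500307 regions overlapped an ethanol region, and 5.42% of estradiol regions with a fold of 17.0 to 45.6 did. With shares this low, an ethanol count of 0 among 10 sites does not set the cluster apart. The ethanol regions nearest to the window were at chr21:42060048-42060271, 252 kb from the trefoil gene bodies, with a fold of 6.22, and at chr21:43210382-43210709, 844 kb away, with a fold of 23.5. At the nearer of these places the estradiol list had a fold of 110.3 and the LY500307 list a fold of 43.5, and this was also the closest region below the window in both lists. Above the window the closest estradiol region lay 47.2 kb outside it, in SLC37A1, with a fold of 9.13. With LY500307 the closest region above lay 180 kb outside, with a fold of 6.83.

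By fold, the order of the shared sites differed between the ligands. With estradiol it ran from the TFF2 promoter (45.6) through the TFF1 promoter (36.0), the 24.4 kb site (35.3), the 49.2 kb site (33.5) and the TFF3 4.30 kb site (28.1) to the 9.97 kb site (17.0), in fold. With LY500307 it ran from the 49.2 kb site (16.7) through the TFF2 promoter (10.4), the TFF1 promoter (8.35), the TFF3 4.30 kb site (7.53) and the 24.4 kb site (6.28) to the 9.97 kb site (6.07). The 24.4 kb site was number 3 with estradiol and number 5 with LY500307, and the 49.2 kb site was number 4 with estradiol and number 1 with LY500307. By fragments the order was not the same: the 49.2 kb site (74 with estradiol and 39 with LY500307) was behind the TFF2 promoter alone with estradiol and ahead of all with LY500307. The 24.4 kb site (14) came just after the 9.97 kb site (15) at the end of the LY500307 order. The estradiol fragment intervals of the 24.4 kb and 49.2 kb sites overlapped (55.5 to 89.6 and 58.1 to 92.9). Their LY500307 intervals did not (7.65 to 23.5 and 27.7 to 53.3). These are the shared sites with the fewest and the most LY500307 fragments, so the gap between their intervals is a description and not a test.

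The fold with estradiol over that with LY500307 also differed among sites. It was 5.62 at the 24.4 kb site, 4.37 at the TFF2 promoter, 4.31 at the TFF1 promoter, 3.74 at the TFF3 4.30 kb site, 2.80 at the 9.97 kb site and 2.0 at the 49.2 kb site. Each fold also depends on the local background, which differed among sites. With LY500307 it was 2.45 fragments at the TFF2 promoter and 1.389 at the 24.4 kb and 49.2 kb sites. With estradiol it was 1.04 at the 24.4 kb site and 1.24 at the TFF2 promoter and the 49.2 kb site. Over all 9082 estradiol regions shared with LY500307 the median ratio was 2.58, with 1.22 at the 10th and 4.29 at the 90th percentile. The 24.4 kb site had a higher ratio than 97.5% of shared regions, the TFF2 promoter than 90.6% and the TFF1 promoter than 90.2%, whereas the 49.2 kb site had a higher ratio than 29.3%. Among the 3968 shared regions with an estradiol fold of 17.0 to 45.6, where the median ratio was 2.99, the 24.4 kb site was above 96.7% and the 49.2 kb site above 9.53%. These percentiles take no account of counting error, and the 24.4 kb site had 14 LY500307 fragments (7.65 to 23.5).

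Fragments divided by the background of each pool gave ratios of estradiol over LY500307 with a counting interval. The ratio was 7.04 at the 24.4 kb site (95% exact interval 3.94 to 13.5), 4.70 at the TFF1 promoter (2.85 to 8.05) and 4.01 at the TFF2 promoter (2.70 to 6.07). It was 3.44 at the TFF3 4.30 kb site (2.13 to 5.72), 3.06 at the 9.97 kb site (1.61 to 6.05) and 2.64 at the 49.2 kb site (1.77 to 3.99). All 6 intervals lay above 1. Over all 9082 shared regions the ratio of folds was also mostly above 1, with 1.22 at the 10th percentile and a median of 2.58. The fragment ratio is given for the 6 sites alone. The backgrounds of the pools were taken as fixed, so these 6 intervals hold the counting error of the summit fragments alone. They hold no spread between cultures and are no test of the ligands. The intervals of the 24.4 kb and 49.2 kb sites overlapped narrowly, and every other pair of these intervals overlapped as well.

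**Figure D4:**
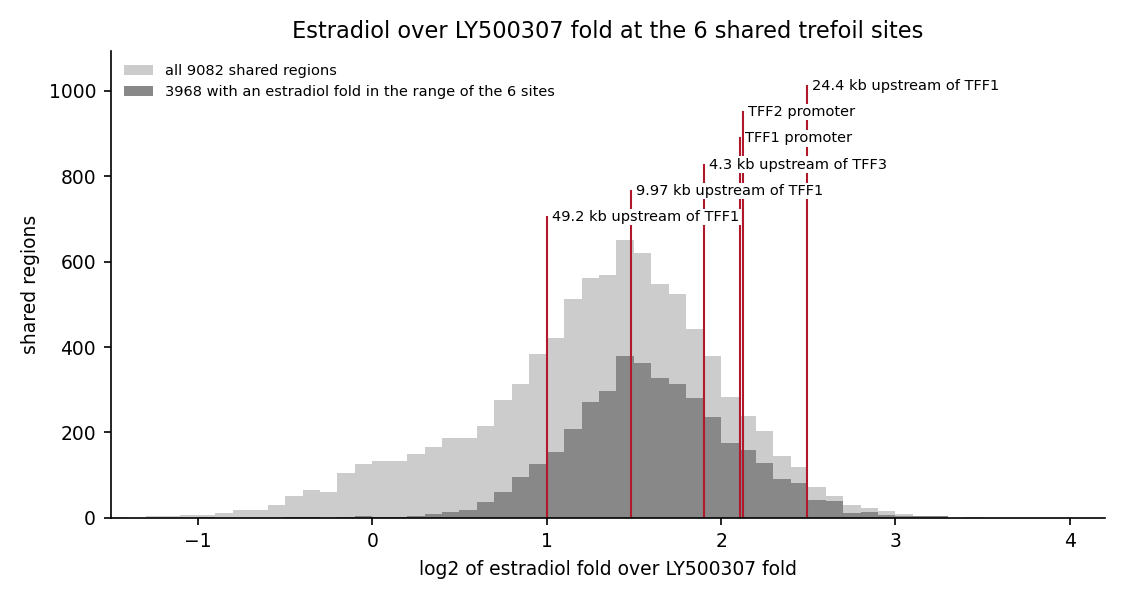
Number of shared regions (vertical axis) by the log2 of their estradiol fold over their LY500307 fold, for all 9082 shared regions (light) and the 3968 with an estradiol fold of 17.0 to 45.6 (dark), with red lines at the 6 shared trefoil sites. The 49.2 kb site lies left of the bulk of the dark bars, at a log2 ratio of 1.00, and the 24.4 kb site at the right edge, at 2.49.

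The TFF1 promoter held the classical imperfect ERE next to its summit. The element, with 1 mismatch, was centred 8 bp from the estradiol summit and 399 bp upstream of the TFF1 start site, at chr21:42366928-42366940. Within 100 bp of the summit, only 1 other site of the cluster had an ERE with at most 1 mismatch: the TFF3 8.63 kb site, the weakest of the 10. Another such element lay in the region 49.2 kb upstream but 141 bp from its estradiol summit, outside the stretch searched. The elements of 5 sites and their substitutions are as follows, with the consensus base first, positions counted from 1 at the 5′ end of the element and the site's base last.
TFF1 promoter, A11G: GGTCACGGTGGCC
49.2 kb upstream of TFF1, off the summit, C12G: GGTCAGTCTGAGC
24.4 kb upstream of TFF1, T3G and A11C: GGGCACCGTGCCC
9.97 kb upstream of TFF1, G1T and T3G: TGGCAGGGTGACC
4.30 kb upstream of TFF3, A5G and C13T: GGTCGTGATGACT

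Counts of these elements depended on the mismatches allowed. No estradiol summit of the cluster had an ERE without a mismatch. With at most 1 mismatch there were 2 of 10 estradiol summits, near the 13.8% of the whole list, and 1 of 6 LY500307 summits, against 15.7%. With at most 2 mismatches there were 9 of 10 estradiol summits, against 44.6% of the list, and 6 of 6 LY500307 summits, against 46.9%. In windows 2000 bp downstream of all summits this looser element was in 7.80% with estradiol and 7.68% with LY500307. The estradiol members were stronger than their list (median fold 25.3 against 9.50), and the share among regions of like fold was not counted. The members were looked at with these results known and share 1 locus, so no test was made.

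The elements with at most 2 mismatches lay close to the summits. Where a summit had several, the one with the fewest mismatches was taken, or the nearer of equals. It was centred 2 to 33 bp from the estradiol summit at the 9 sites, with a median of 11 bp, and 13 to 40 bp from the LY500307 summit at the 6 sites, with a median of 23.5 bp. Over all regions with such an element the median distance was 17 bp in both lists. The exception was the 48.5 kb site, which had 2 exact half-sites (GGTCA) 53 and 55 bp on either side of the summit and no full element.

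**Figure D5:**
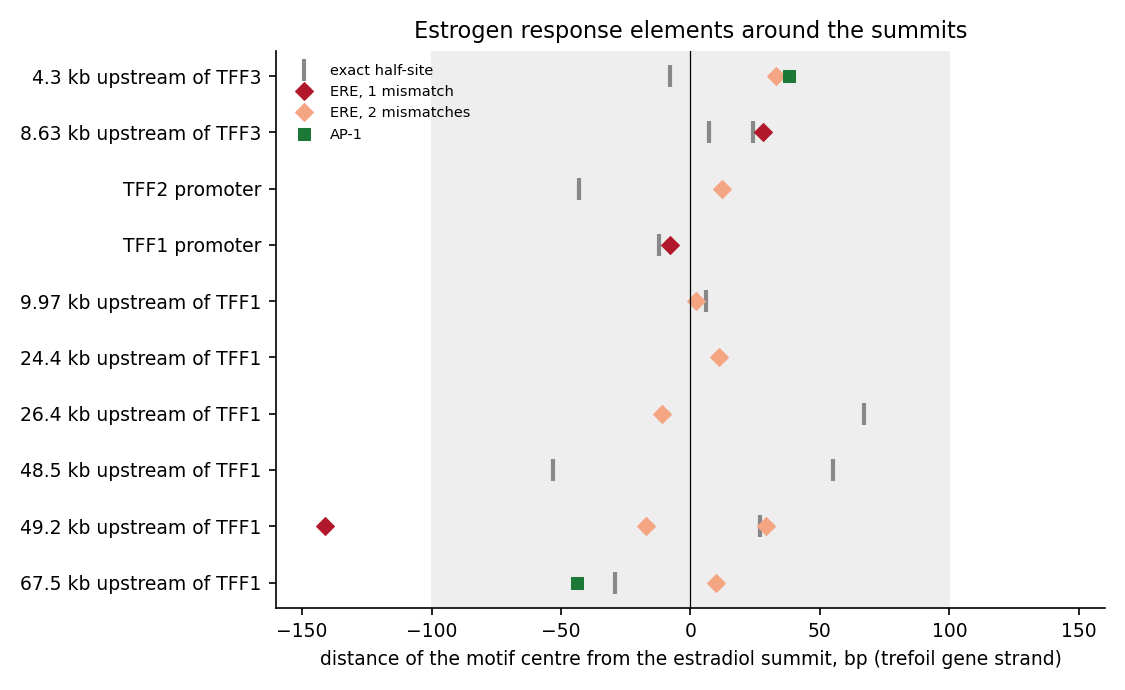
Distance of each motif centre from the estradiol summit, in bp on the trefoil gene strand, for the 10 sites (rows); diamonds are EREs by mismatches, bars are exact half-sites and squares are AP-1 elements, and grey marks the stretch within 100 bp of the summit that was searched. The full elements of 9 sites sit within 33 bp of the summit, and the 1-mismatch element of the 49.2 kb site lies 141 bp away.

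Half-sites and elements of other factors were counted in the same windows. An exact ERE half-site, GGTCA on either strand, was at 9 of 10 estradiol summits, against 71.2% of the list, and at 5 of 6 LY500307 summits, against 71.6%. Some of these half-sites lie inside the full elements above. The AP-1 element, TGACTCA or TGAGTCA, which FOS and JUN proteins bind, was at 2 estradiol summits (the TFF3 4.30 kb and the 67.5 kb sites), against 13.8%, and at 1 LY500307 summit, against 13.7%. At the TFF3 4.30 kb site it shared bases with the ERE match. The TEAD element GGAATG was at the TFF1 promoter and at the TFF3 8.63 kb site, 2 of 10 against 16.3%. A GATA element (AGATAA or TGATAA) was at 1 site, the TFF3 8.63 kb site, against 14.7%. Neither a FOXA element (TGTTTAC or TGTTTGC), held by 3.95% of estradiol summits, nor an SP1 element (GGGCGGG), held by 11.5%, was found in the 10 windows. A match is a description of the letters and not of binding by the factor.

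Promoter sites made up 2 of 10 estradiol regions, against 16.4% of that list, and 2 of 6 LY500307 regions, against 14.0%. The estradiol regions of the cluster were somewhat wide, with a median of 376.5 bp against 330 bp for the list, and the LY500307 regions narrow, with 246.5 bp against 302 bp. Median GC content around the summit was 53.5% against 54.7% with estradiol and 56.0% against 54.2% with LY500307. The TFF2 promoter was the richest in GC, at 67.2% within 100 bp of the estradiol summit.

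Seen from the genes, all 3 trefoil genes had estradiol and LY500307 regions within 100 kb and no ethanol region. TFF1 and TFF2 each had 10 estradiol and 6 LY500307 regions, and TFF3 had 8 and 5, because the 49.2 kb and 67.5 kb sites are over 100 kb from it. Of all 20033 protein-coding genes, 83.1% had an estradiol region within 100 kb, 62.7% an LY500307 region and 33.0% an ethanol region. The counts of TFF1 exceeded those of 86.8% of genes with estradiol and of 94.0% with LY500307, although longer genes have wider windows. Its strongest estradiol fold within 100 kb, which was that of the TFF2 promoter (45.6), exceeded that of 73.3% of genes. The neighbours TMPRSS3 and UBASH3A had 3 estradiol regions each in their bodies, of which LY500307 had 2 in TMPRSS3 and 1 in UBASH3A, and ABCG1 had 0 in its body.

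The pattern of TFF1 over the 3 lists was a common one. Estradiol and LY500307 regions without an ethanol region within 100 kb were found for 6201 of the 20033 genes (31.0%). The strongest folds within 100 kb of TFF1 were those of the TFF2 promoter with estradiol (45.6) and of the 49.2 kb site with LY500307 (16.7). At the TFF1 promoter itself the folds were 36.0 with estradiol and 8.35 with LY500307. TFF2, TMPRSS3 and UBASH3A had the same strongest folds as TFF1. By Euclidean distance in log2(strongest fold + 1) over the 3 lists, 361 genes on other chromosomes lay within 0.25 of TFF1. The nearest was PARD3, a cell polarity gene, at 45.4-fold with estradiol, 16.7-fold with LY500307 and no ethanol region. The next were ATRIP, PFKFB4, SHISA5 and TREX1, all at 45.7 with estradiol and 16.5 with LY500307. These 4 genes had the same strongest fold in each list, so their values are not independent.

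Genes linked to trefoil peptides were looked up in the same way, and 18 of 18 were in the annotation. They were genes of mucins, binding proteins, proposed receptors and factors of secretory cells. An estradiol region lay within 100 kb of 15 of them (83.3%), an LY500307 region within 100 kb of 8 (44.4%) and an ethanol region within 100 kb of 6 (33.3%), against the shares of all genes given above. Some of the 18 are neighbours with the same strongest fold, as given below, so these counts are not of independent genes. Estradiol and LY500307 regions with no ethanol region, as at the trefoil genes, were found at 2 of the 18 (DMBT1 and CXCR4), against 31.0% of all genes.

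Among the mucins, which trefoil peptides accompany in mucus, MUC1 reached 69.1-fold with estradiol, 28.7-fold with LY500307 and 6.25-fold with ethanol. MUC2, MUC5AC and MUC5B had the same strongest folds, 100.5 with estradiol, 43.5 with LY500307 and 15.7 with ethanol, so their values are not independent. MUC6, the mucin secreted with TFF2, had no region in any list.

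Of the proteins that bind trefoil peptides or mucus, the gastrokine genes GKN1 and GKN2 had 4 estradiol regions each, up to a fold of 27.0, and none in the other lists. They are neighbours with the same strongest fold, so their values are not independent. The mucus protein gene FCGBP had 3 estradiol regions, up to 25.0, and none in the other lists. DMBT1, a gene for a mucosal scavenger receptor protein, had folds of up to 21.0 with estradiol and 11.3 with LY500307.

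Among proposed receptors, the chemokine receptor gene CXCR4 had folds of up to 11.6 with estradiol and 6.83 with LY500307. ACKR3, a gene for an atypical chemokine receptor, had 97.5 with estradiol, 37.2 with LY500307 and 10.5 with ethanol. EGFR, the epidermal growth factor receptor gene, had 13 estradiol regions up to 55.6, 4 LY500307 regions up to 14.6 and 1 ethanol region of 9.97. LINGO2 had none in any list.

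Among factors of secretory cells, SPDEF (fold up to 12), FOXA1 (6.0), FOXA2 (9.96) and KLF4 (up to 16) had estradiol regions alone. AGR2, a gene for a disulfide isomerase of mucous cells, had no region in any list.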

How the data were processed

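Flag ChIP-seq of 12 ChIP libraries, with 9 input libraries, was given by the authors as 3 narrowPeak lists, 1 per treatment, each named in the labels of its 4 ChIP libraries. MACS2 2.1.1.20160309, Bowtie2 2.2.6, DiffBind and the hg38 build are listed, without roles, in the submitters' processing notes. The labels list 4 ChIP libraries per treatment, but their protocol speaks of treatment in triplicate. How many libraries were pooled, the filters and the read totals are not given in the sources used here. The deposited fold is, by the column order, a ratio of the ChIP pileup to the local background. The p-value and q-value of each region, as -log10, are those the authors' peak caller deposited, and the deposited display score, which was not used, follows from the -log10 q. All records came from the authors' threshold, with a lowest -log10 q of 2.15 with estradiol, 2.11 with LY500307 and 2.02 with ethanol.

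Only records on autosomes, X and Y were used (26861 of 26896 estradiol, 10045 of 10059 LY500307 and 2905 of 2911 ethanol) and positions were counted from 1. Genes came from GENCODE 44. Regions sharing at least 1 bp were called shared. Motifs were sought on both strands within 100 bp of each summit. Fragments were recovered as the whole pileup and background that give both the fold (pseudocount 1) and the Poisson p. Tested on simulated data, the recovery returned 100% of 200 pileups and the motif search 100% of 2000 implanted elements with at most 1 mismatch. The simulated pileups came from the same Poisson model that the recovery assumes and were not held to the 0.0002 limit, so this checks the arithmetic only. On chromosome 21, 296 of 312 estradiol and 126 of 129 LY500307 regions with a fold of 5 or more were recovered. The backgrounds behind the fragment ratios rest on these. Python 3.11.15, numpy 2.4.6, pandas 2.3.3, scipy 1.17.1, pysam 0.24.0, statsmodels 0.14.6 and matplotlib 3.10.9 were used. No test between treatments was made, since each has 1 pooled list. Named genes were the trefoil genes, all protein-coding genes in the window, the 18 genes linked to trefoil peptides and the 5 genes nearest to TFF1 by strongest fold. Members and gene lists were chosen with earlier results of these data known. The sequences of some sites are not reported here.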

Additional observations from a re-analysis of the deposited data

How the results depend on the processing

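The counts of regions (10 estradiol, 6 LY500307 and 0 ethanol) were 9, 6 and 0 with a window of 50 kb and 13, 6 and 0 with one of 200 kb. With any base in the window they were 10, 6 and 0. A fold of 5 or more and a -log10 q of 5 or more also left them at 10, 6 and 0, but these cut-offs could not change them. Every member had a fold of at least 6.07 and a -log10 q of at least 7.3, and a cut-off cannot raise a count of 0. The 6 sites shared with LY500307 and the 0 shared with ethanol were also 6 and 0 with 50% of each region covered and with summits within 200 bp. The promoter count was 2 in each ligand list with 2500 bp on both sides of a start site. The ERE count (2 with estradiol and 1 with LY500307) moved most: without a mismatch it was 0 with estradiol and 0 with LY500307, with at most 2 mismatches it was 9 with estradiol and 6 with LY500307, and with the whole region searched it was 3 with estradiol and 2 with LY500307. By -log10 q the strongest regions stood above 89.6% of the estradiol list and 74.2% of the LY500307 list, against 90.5% with estradiol and 77.9% with LY500307 by fold. The alternatives that use fragments or a range of folds were added after the data were seen. With fragments in place of folds, the TFF1 promoter's ratio (4.70) exceeded the TFF2 promoter's (4.01), an order opposite to that of the folds. No paired analysis was possible because each treatment has 1 pooled list, and leaving out replicates was not possible for the same reason.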
